A study of Mus musculus with 106 samples.

Results

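Across the H3K27ac peak lists of the series, 1397 merged regions lay away from the protein-coding starts of GENCODE and were held by both cell types. For each of the 35 H3K27ac lists, the 30000 peaks with the best −log10 p were taken and merged over lists into 124105 regions. A region was kept when no protein-coding transcription start of the GRCm38 annotation lay within 2.5 kb, at least 10 of the 12 HSC lists held it and at least 18 of the 23 BMDM lists held it. Of the 77592 regions that at least 2 lists held, 50485 were distal by this definition, and the 1397 shared distal regions were 2.77% of those. Shared regions at protein-coding promoters numbered 9686, so 12.6% of all shared regions were distal. Starts of RefSeq mRNAs, predicted ones included, had no part in the rule and lay within 2.5 kb of 122 of the 1397 (8.73%). The regions were chosen by the −log10 p of their H3K27ac peaks, and their H3K27ac is therefore compared between cell types here without a test.

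The study profiled H3K27ac and H3K4me3 by ChIP-seq in cells of C57BL/6J mice made diabetic with streptozotocin (STZ), a toxin for insulin-producing cells, and in control mice. Mice were 12 to 14 weeks old when assigned to a group, and STZ was given at 42 to 45 mg/kg per day for 5 days. Diabetic mice had blood glucose above 13.9 mmol/L, and cells were taken 6 weeks after the last injection. The cells named HSC were bone marrow depleted of lineage-positive cells, so they hold progenitors besides stem cells. Bone marrow-derived macrophages (BMDMs) were grown for 7 days in medium with 5 mmol/L glucose and L929-conditioned medium, and were left unstimulated or given LPS at 100 ng/mL with IFN-γ at 10 ng/mL for 16 h. All BMDMs, from diabetic mice too, were thus cultured in the same glucose. Each mark had 6 libraries per group of mouse and cell state, except 5 for unstimulated BMDMs of diabetic mice, and although the study counted individual animals as its replicates, the labels do not tie each library to a mouse.

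Acetylation of histone H3 at lysine 27 marks active enhancers and active promoters, whereas trimethylation at lysine 4 gathers where RNA polymerase II starts transcription, above all at CpG-rich sequence. Most enhancers are used by some cell types only, and regions active in both a stem cell and its macrophage progeny are often promoters of widely used genes. A region that is acetylated in every blood cell but lies far from a coding gene can be a shared enhancer, a start of a noncoding RNA, or a gene for a small RNA that coding annotation does not list.

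Below, 6 stretches of sequence show the kinds of region found here. They were read from the RefSeq GRCm38.p6 assembly, the first 4 are 300 bp around the acetylation summit on the plus strand, and their capitals mark CpG dinucleotides, the sites of DNA methylation whose density separates promoter-like from other sequence. The region near Chd2, chr7:73557726-73558025, was held by all 35 H3K4me3 lists and has 34 CpGs. The region upstream of Fos, chr12:85454936-85455235, was held by no H3K4me3 list and has 5 CpGs. The widest region, near Tmem189 and Cebpb, chr2:167774866-167775165, has 9 CpGs at its summit, and the region upstream of Usp9x, chrX:13041726-13042025, has 25.
Chd2: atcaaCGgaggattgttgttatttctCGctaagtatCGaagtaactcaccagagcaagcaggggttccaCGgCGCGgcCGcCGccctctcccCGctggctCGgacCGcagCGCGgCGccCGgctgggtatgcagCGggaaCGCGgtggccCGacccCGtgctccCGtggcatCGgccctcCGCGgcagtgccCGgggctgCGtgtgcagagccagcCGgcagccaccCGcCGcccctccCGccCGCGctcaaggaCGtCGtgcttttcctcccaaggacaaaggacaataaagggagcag
Fos: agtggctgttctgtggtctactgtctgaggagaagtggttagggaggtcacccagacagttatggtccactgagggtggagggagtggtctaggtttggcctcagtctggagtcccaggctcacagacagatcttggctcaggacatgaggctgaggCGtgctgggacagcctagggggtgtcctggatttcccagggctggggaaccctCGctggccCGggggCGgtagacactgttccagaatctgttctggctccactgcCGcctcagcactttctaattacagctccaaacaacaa
Tmem189: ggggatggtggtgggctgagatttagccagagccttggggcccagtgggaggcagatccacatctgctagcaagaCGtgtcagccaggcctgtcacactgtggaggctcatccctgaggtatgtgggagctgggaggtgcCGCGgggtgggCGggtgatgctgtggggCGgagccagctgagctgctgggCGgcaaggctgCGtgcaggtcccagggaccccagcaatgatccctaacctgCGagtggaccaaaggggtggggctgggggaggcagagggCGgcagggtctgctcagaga
Usp9x: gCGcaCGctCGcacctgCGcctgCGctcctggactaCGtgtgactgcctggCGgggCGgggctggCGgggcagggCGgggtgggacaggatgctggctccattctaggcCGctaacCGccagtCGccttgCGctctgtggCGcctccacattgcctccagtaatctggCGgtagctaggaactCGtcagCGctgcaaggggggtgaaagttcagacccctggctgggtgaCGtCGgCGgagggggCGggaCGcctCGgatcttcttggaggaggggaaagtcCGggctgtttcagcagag
The fifth stretch is the minus strand of chr1:165642156-165642455 near Mpzl1, in which the capitals mark the tRNA gene n-TPcgg2 of 72 bp. The sixth is the 4.5S RNA gene Rn4.5s, minus strand of chr6:47654921-47655094, whose first 60 bases, in capitals, were searched in all regions.
n-TPcgg2: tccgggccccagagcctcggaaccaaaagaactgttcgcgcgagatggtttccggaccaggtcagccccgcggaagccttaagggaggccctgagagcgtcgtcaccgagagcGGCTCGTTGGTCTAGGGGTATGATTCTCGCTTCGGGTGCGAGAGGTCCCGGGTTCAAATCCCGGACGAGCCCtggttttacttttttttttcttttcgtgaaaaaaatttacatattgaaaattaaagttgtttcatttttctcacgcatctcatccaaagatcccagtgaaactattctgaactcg
Rn4.5s: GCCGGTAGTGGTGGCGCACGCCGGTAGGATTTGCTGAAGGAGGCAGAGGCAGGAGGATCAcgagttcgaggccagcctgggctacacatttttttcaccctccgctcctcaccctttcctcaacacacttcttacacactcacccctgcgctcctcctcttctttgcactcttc

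Markers were read as H3K27ac peaks within 1 kb of a gene's start. The stem and progenitor genes Kit and Erg were marked in 11 and 9 of 12 HSC lists and in 3 and 4 of 23 BMDM lists, but Tal1, Meis1, Gata2, Myb and Mecom, marked in all 12 HSC lists, were also marked in 23, 20, 18, 17 and 16 BMDM lists. The macrophage genes Csf1r, Mertk and Cd68 were marked in all 23 BMDM lists and in 7 of 12 HSC lists. Adgre1 and Itgam, which encode F4/80 and CD11b, were marked in 2 and 0 BMDM lists. The HSC lists also carried the erythroid Hba-a1 (12 of 12) and the granulocyte gene Mpo (8 of 12), and the BMDM lists the erythroid Klf1 (23 of 23) and the T cell gene Lck (19 of 23). In the BMDM lists, however, the T cell genes Cd3e and Cd3g were both marked in 0, and the erythroid Gata1, Hba-a1 and Epor in 0, 1 and 9. In the HSC lists the neutrophil genes Ltf, Elane, Camp and S100a8 were marked in 8, 5, 2 and 0. Whether cells of these other types were present, and their part in the results, was not tested. In these bulk samples, fewer cells with a mark and less mark per cell cannot be told apart. The deposited H3K27ac lists held no read totals, so depth is unknown.

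Some control BMDM libraries went against their labels. Regions that LPS+IFN-γ raised in BMDMs of diabetic mice (1069 regions) lay on average 25.4 percentiles below regions it lowered (436 regions) in the control library labelled LPS+IFN-γ 5, and 11.1 percentiles above them in the library labelled unstimulated 5. In unstimulated libraries 1 and 6 the gap was 0.632 and 0.0717, while the other control libraries ranged from 5.66 to 34.6 when labelled stimulated and from -27.7 to -14.5 when labelled unstimulated. The main results on stimulation are given with and without LPS+IFN-γ 5 and unstimulated 5 and 6, a set fixed from earlier results, in which unstimulated 1 was kept although its gap was as near to 0 as that of 6. The set was doubted at regions called in diabetic mice, so a wider gap without it follows in part from that choice and is no independent sign of a response. Without these 3 libraries, and with the number of lists needed scaled to those left and rounded up, the rule gave 1355 regions.

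The shared distal regions lay at a median of 16501 bp from the nearest protein-coding start, with quartiles of 7291 and 37093 bp. Of the 1397, 211 (15.1%) lay between 2.5 and 5 kb away, 666 (47.7%) between 10 and 50 kb, and 76 (5.44%) beyond 100 kb. They were split evenly over the sides of the gene, with 688 upstream and 709 downstream. The nearest to the limit were regions at Gm49337 (2506 bp), Lmo4 and Sf3b5 (2507 bp each), Mxi1 (2513 bp) and Ccnd1 (2533 bp). The farthest lay 1426720 bp from Pcdh20, 834017 bp from Adam6a and 757253 bp from Kirrel3, and those by Pcdh20 and Kirrel3 lie at annotated pseudogenes. Chromosomes 4, 2 and 11 held 110, 109 and 109 regions, the X chromosome 25 and the Y chromosome none.

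A smaller share of the shared regions than of distal regions of one cell type lay in introns of coding genes, and a larger share at noncoding genes. For this comparison, 504 HSC distal regions (at least 10 HSC and at most 2 BMDM lists) and 578 BMDM distal regions (at least 18 BMDM and at most 1 HSC list) were taken. Of the shared distal regions, 340 (24.3%) lay in an intron of a coding gene, against 39.5% of HSC distal, 38.6% of BMDM distal and 39.6% of all distal regions. Regions in a noncoding gene and in no coding gene numbered 367 (26.3%), against 11.5%, 9.17% and 9.28%. A GENCODE noncoding start lay within 2.5 kb of 440 (31.5%), against 15.5%, 12.46% and 11.5%. For 735 regions (52.6%), no start of any kind in GENCODE or RefSeq lay within 2.5 kb, against 72.6%, 78.5% and 81.4%. Intergenic were 34.9%, against 34.4% of all distal regions. These shares are descriptions over regions, which are no replicates, and were not tested.

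**Figure D1:**
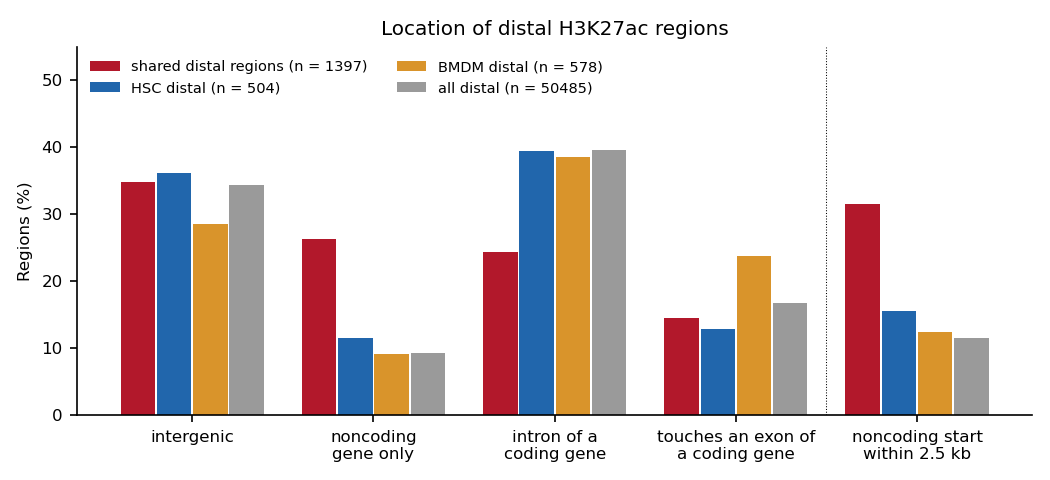
Percent of regions (y axis) by their place relative to GENCODE genes and, right of the dotted line, with a noncoding start within 2.5 kb. Bars stand for the 1397 shared distal regions, 504 HSC distal, 578 BMDM distal and all 50485 distal regions, and the shared regions stand highest in the classes of noncoding genes and noncoding starts (26.3% and 31.5%).

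Genes for small RNAs made a distinct share of the shared distal regions. A tRNA gene of RefSeq started inside 33 of them (2.36%), inside none of the HSC or BMDM distal regions and inside 62 (0.123%) of all distal regions. A small nuclear RNA gene, most of which encode parts of the spliceosome, started inside 22 (1.57%), against 46 (0.0911%) of all distal regions. The tRNA regions had H3K4me3 in a median of 32 of 35 lists, and those of snRNA genes in 24, of which 3 of 12 were HSC lists and 22 of 23 BMDM lists. The region near Gsta4 (chr9:78175341-78177059) holds Rn7sk, the RNA that restrains elongation by RNA polymerase II, and had H3K4me3 in 30 lists. Regions by Fcgr3, Fcgr4 and Cfap126 on chromosome 1 hold 5 tRNA genes, and 4 regions near Tex14 hold the U3 genes Rnu3b1 to Rnu3b4 with H3K4me3 in 12 or 13 lists.

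The most crowded stretch of the genome for shared distal regions was an array of 4.5S RNA genes between Ezh2 and Pdia4. Ezh2, which encodes the methyltransferase of Polycomb, was the nearest gene of 9 regions (chr6:47650582-47686893) and Pdia4, a protein disulfide isomerase of the endoplasmic reticulum, of 8 (chr6:47739078-47773359). All 17 had H3K4me3 in 34 or 35 lists, were 1670 to 2621 bp wide, and lay 40005 to 89162 bp from the coding start. The first 60 bases of the 4.5S RNA, a small RNA of rodents transcribed by RNA polymerase III, occurred once in each of 13 of the 17, in no other shared distal region, and 20 times in the whole assembly. Successive copies lay a median of 4335 bp apart. The central 50 bases of these 17 regions occurred 4 to 17 times in the genome, so reads of one copy cannot be told from those of another and the 17 regions are not independent. RefSeq annotates a 4.5S gene in 1 of them, and GENCODE leaves all 17 intergenic. RefSeq mRNAs start inside the region chr6:47667191-47669512 and 307 and 1711 bp from those that begin at 47662899 and 47650582.

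Repeated sequence was a minority elsewhere. For 142 of the 1397 regions (10.2%) the central 50 bases occurred more than once, against 5.95% of HSC distal and 8.82% of BMDM distal regions. Near Eapp and Snx6, 6 regions (chr12:54709365-54739359) each hold an snRNA gene and share their central bases in pairs. Among the regions of best acetylation were pseudogene copies near 20 Mb of chromosome 8, such as those by Gm31371 and Gm15319, with 4 copies each. Without the 142, the median number of H3K4me3 lists was unchanged at 20.

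Some genes were nearest to several shared distal regions. The 1397 regions had 1071 nearest genes, 76 of which were nearest to 3 or more. Zfp36l2, an RNA-binding protein that destabilizes AU-rich mRNAs, had 8 (chr17:84095883-84183959), with H3K4me3 in 1 to 30 lists. Irf2bpl had 6, and Tmem189, Zmiz1, 1700001O22Rik, Med13l, Dusp1 and Tomm20 had 5 each. The run downstream of Tomm20 and that around Dusp1, a phosphatase that inactivates MAP kinases, had H3K4me3 in at most 2 and at most 7 lists, whereas that at 1700001O22Rik had it in 31 to 35.

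The regions were wide, at a median of 2106 bp (quartiles 1406 and 3610 bp) after merging over lists. HSC distal and BMDM distal regions had medians of 1749.5 and 1839 bp and all distal regions 790 bp. The bases of a region under peaks, as its median over all 35 libraries with unheld ones counted as uncovered, had a median of 1045 bp. Over the regions that a single library held, the median ran from 712 to 1667 bp between libraries. Wider than 5 kb were 186 (13.3%) and wider than 10 kb 30 (2.15%), against 0.967% and 0.0852% of all distal regions. Merging over 35 lists widens a region with the number of lists that hold it, and the part of this in the difference was not tested. The widest region, 31780 bp at chr2:167751363-167783142, began 62448 bp from Cebpb, a transcription factor of macrophage and granulocyte differentiation. A further one of 29182 bp (chr2:167697378-167726559) lay 8463 bp from the start of the same gene. The next were 28994 bp by Stum and Itpkb, 19441 bp by Galnt2 and 17165 bp by Notch1, a receptor that directs lymphoid fate.

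H3K27ac at the shared distal regions was strong in both cell types. A region's best −log10 p was ranked within each library over the 77592 regions, and its percentile is used below. The median percentile of the shared distal regions was 86.5 in HSC and 86.9 in BMDM libraries. HSC distal regions had 80.6 in HSC libraries and BMDM distal regions 82.0 in BMDM libraries. All 35 lists held 553 of the 1397, all 12 HSC lists held 952 and all 23 BMDM lists 690. The best acetylation belonged to the region by Zfp869 (chr8:69716176-69717077, percentile 99.9), inside which a RefSeq mRNA starts. At the limits of the rule, 271 regions were held by exactly 10 HSC or exactly 18 BMDM lists, and 262 distal regions fell short by 1 list. Just inside stood regions by Slc52a3, Id1 and Arhgap27 (percentiles 85.2, 84.4 and 83.5), and just outside, with 9 HSC lists, regions by Gpr157, Ttc17 and Ctsb (92.5, 92.1 and 91.7).

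H3K4me3, which had no part in the choice, was present at many shared distal regions. A region had H3K4me3 in a median of 20 of 35 lists, 5 of 12 in HSCs and 15 of 23 in BMDMs, when the 30000 best H3K4me3 peaks of each list were used. The medians were 1 list for HSC distal, 4 for BMDM distal, 1 for all distal regions and 34 for shared regions at promoters. At least 32 lists held H3K4me3 at 353 regions (25.3%), against none of the HSC distal, 1.56% of BMDM distal and 1.71% of all distal regions. Fewer than 10 lists held it at 430 (30.8%), against 95.0%, 78.7% and 82.6%. At 42 regions (3.01%) no list held it, although the whole deposited lists, with their weaker peaks, left none without a peak.

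**Figure D2:**
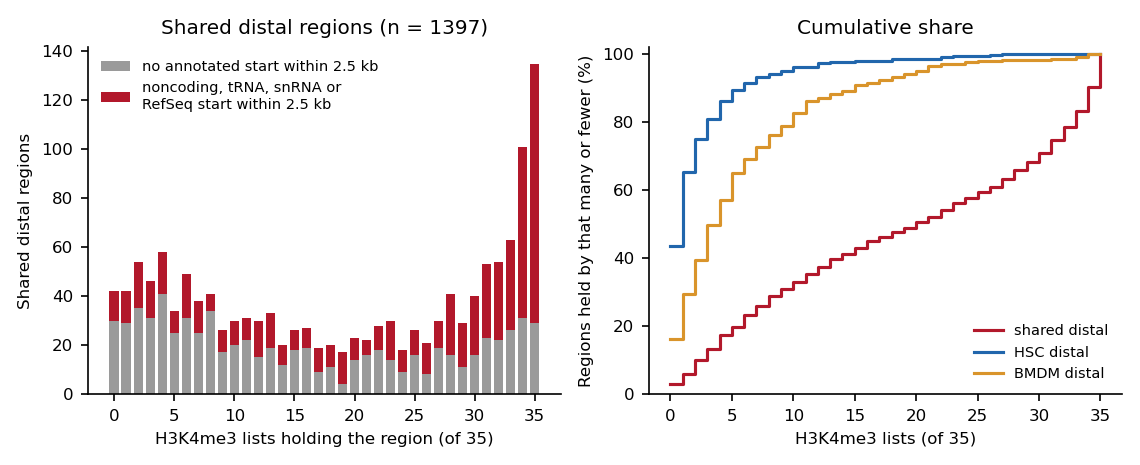
Left, the number of shared distal regions (y axis) by the number of H3K4me3 lists, of 35, that hold them (x axis), split by whether another annotated start lies within 2.5 kb. Right, the percent of shared distal, HSC distal and BMDM distal regions held by that many lists or fewer. The shared distal regions spread over the whole range, with 30.8% below 10 lists and 25.3% at 32 or more, whereas 95.0% of HSC distal and 78.7% of BMDM distal regions lie below 10.

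Within each H3K4me3 library, the share of shared distal regions with a peak was compared with that of regions of one cell type. In HSC libraries 45.9% of shared distal regions (range 24.1% to 57.1%) and 7.77% of HSC distal regions had H3K4me3, and in BMDM libraries 59.5% (51.8% to 79.5%) and 22.2% of BMDM distal regions. Within the 12 HSC libraries the gap to HSC distal regions averaged 38.2 percentage points (lowest 19.7), and within the 23 BMDM libraries the gap to BMDM distal regions averaged 37.2 points (lowest 28.1), so each library showed it. Over all 35 libraries the gaps averaged 48.6 points ± 9.89 (SD) and 38.1 points ± 5.92, but regions of one cell type lack H3K27ac in the other by definition, and these values are given with no test. The regions differ in acetylation too, and between percentiles 75 and 90 alone the gaps over all libraries were 39.4 and 28.1 points. For regions of 1 to 3 kb they were 55.8 and 45.3 points, and with the 13000 best H3K4me3 peaks 30.3 and 26.9. For the 957 shared regions with no start of any GENCODE gene within 2.5 kb they were 41.8 and 31.2.

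**Figure D3:**
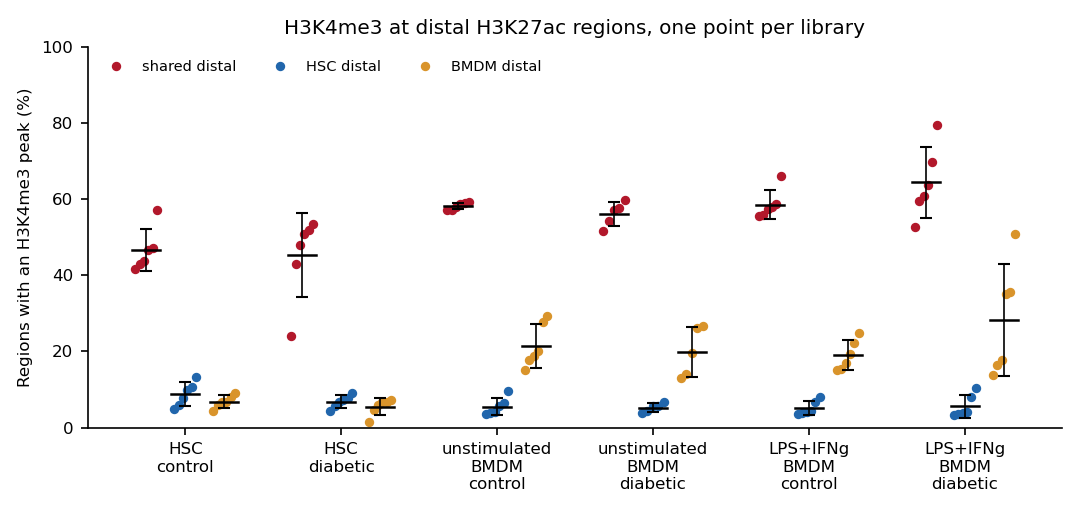
Percent of shared distal, HSC distal and BMDM distal regions (y axis) with one of the best 30000 H3K4me3 peaks, for each library (points) and the group mean ± SD (bars), by cell state and mouse. For shared distal regions, control HSC libraries average 46.6% and control unstimulated BMDM libraries 58.2%, and 1 diabetic HSC library lies at 24.1%.

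CpG density differed between regions with and without H3K4me3. The ratio of observed to expected CpG over a whole region had a median of 0.339, between the 0.253 of all distal regions and the 0.645 of shared promoters. It was 0.198 for the 42 regions without H3K4me3 in any list, 0.231 for those with 1 to 9 lists, 0.340 for 10 to 31 lists and 0.583 for 32 or more. Over the 1397 regions, the number of H3K4me3 lists and the CpG ratio had a Spearman correlation of 0.68, a description across regions that share all 35 libraries. The same coefficient was 0.61 with the acetylation percentile, -0.27 with width and 0.088 with distance from the coding start. A CpG-rich summit did not always carry H3K4me3: the Usp9x region printed above, with 25 CpGs in 300 bp, had it in 4 of 35 lists.

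**Figure D4:**
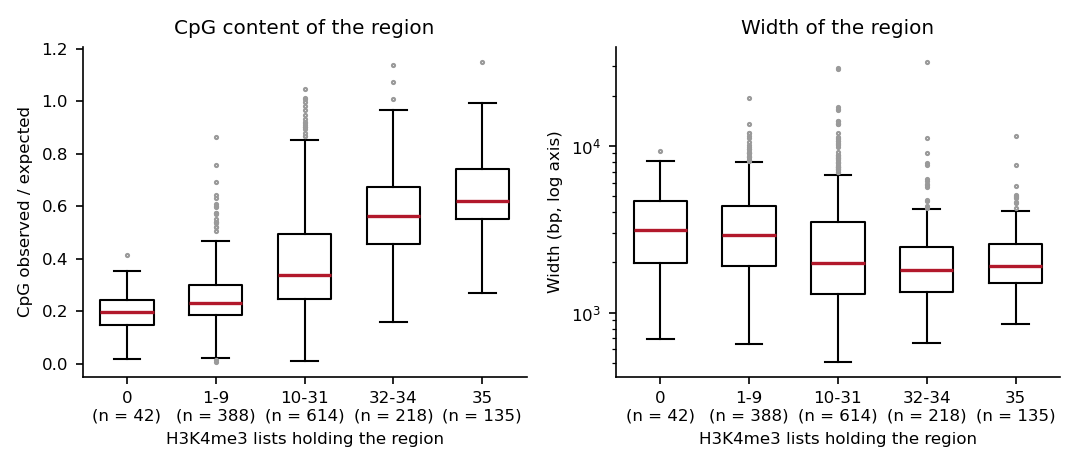
Box plots of the observed over expected CpG (left) and of the width in bp on a log axis (right) of the shared distal regions, by the number of H3K4me3 lists, of 35, that hold them. Regions with H3K4me3 in many lists have a higher CpG ratio and are narrower, with a median of 1821 bp at 32 or more lists and 2940 bp below 10. Width and CpG ratio have a Spearman correlation of -0.50 over the 1397 regions.

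Position differed along the same axis. A noncoding start lay within 2.5 kb of 16.7% of the regions without H3K4me3 and of 48.7% of those with 32 or more lists, and 54.8% and 8.5% lay in introns. The regions without H3K4me3 were wider, at a median of 3118 bp against 1821 bp. Of the 735 regions with no start of any kind within 2.5 kb, 108 (14.7%) had H3K4me3 in 32 or more lists. In the class held by all 35 H3K4me3 lists were regions at noncoding genes by Chd2 (1810026B05Rik), Spen (B330016D10Rik), A830005F24Rik (Gm37238) and Akain1 (C030034I22Rik). The class held by none included regions by Kcnip1, Tomm20, Plekho2, the chemokine receptor gene Ccr1 and Fos.

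Short motifs were counted in the 300 bp around the summit on both strands, and among the motifs given here no motif's letters contain those of another. The letters AGATAA, bound by GATA factors, occurred in 5.01% of shared distal windows, 12.7% of HSC distal, 5.71% of BMDM distal and 6.49% of all 77592 windows. RUNX (TGTGGT) occurred in 15.8%, 26.2%, 23.4% and 18.5%, ETS (AGGAAGT) in 7.52%, 10.7%, 4.84% and 6.36%, and AP-1 (TGANTCA) in 6.16%, 7.94%, 7.27% and 5.93%. The E-box CAGCTG occurred in 24.7%, 26.8%, 24.6% and 24.0%. The windows of shared distal regions were richer in GC (median 61.7% against 55% and 56.3% in HSC and BMDM distal regions), and the part of this in the motif shares was not tested. In the Fos window printed above, a RUNX match lies at chr12:85454947-85454952.

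Many genes of the early response had shared distal regions nearby. Of all 21911 protein-coding genes, 1071 (4.89%) were the nearest gene of at least 1 region, without regard to the length of their flanks. Of 22 genes of AP-1 and the early response, 11 (50%) were, with 29 regions. Fos, a subunit of AP-1, had 4 regions from 28172 bp upstream to 10072 bp downstream, with H3K4me3 in 1, 0, 2 and 28 lists. Dusp1 had 5 with 0 to 7 lists, the NF-κB inhibitor gene Nfkbia 1 with 15 lists, and Btg2, Fosb, Zfp36l1 and Klf10 had 2 each. Of these 29 regions, 14 had H3K4me3 in fewer than 10 lists and 3 in 32 or more.

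Of 40 transcription factor genes of blood, 14 (35%) had 20 such regions. The region of Spi1, which encodes PU.1, lay 2606 bp upstream of the start (chr2:91077675-91079784) and was held by 12 HSC and 19 BMDM lists, with H3K4me3 in 18. Tal1, a stem cell and erythroid factor, had 2 regions, with H3K4me3 in 18 and 35 lists. Fli1, an ETS factor, had 3 intronic ones with 0, 2 and 3 lists, and Runx3 had 3 downstream with 1, 6 and 27. Irf8, which directs monocyte and dendritic cell fate, had 1 with H3K4me3 in 6 lists, 39287 bp downstream, and Myc 1 with 35. Of the 20, 6 had fewer than 10 lists and 5 had 32 or more.

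Surface and signaling genes of blood (9 of 40, 22.5%) had 11 regions, 7 of them with H3K4me3 in fewer than 10 lists. The phosphatase gene Inpp5d had 2 (2 and 0 lists), the kinase gene Syk 2 (6 and 1), the integrin gene Itgb2 1 of 11852 bp (7) and the chemokine receptor gene Cxcr4 1 lying 118024 bp upstream (4). Of 21 genes of NF-κB and interferon signaling 4 had 7 regions, 4 of them around the interferon receptor gene Ifnar1 with 15, 0, 33 and 13 lists. Among 24 widely used genes only Actb and Eef1a1 had any (8.33%), and of 20 genes of other tissues, such as Alb and Myh6, none did. These lists are small, and their shares were not tested.

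Fewer shared distal regions carried H3K4me3 in HSCs than in unstimulated BMDMs. In control mice the share was 46.6% ± 5.56 (SD, n = 6) in HSCs, with a lowest, median and highest library of 41.8%, 45.3% and 57.1%, and 58.2% ± 0.911 (n = 6) in BMDMs, with 57.2%, 58.3% and 59.3%. All 6 HSC libraries lay below all BMDM libraries. The difference was -11.6 points (exact two-sided permutation test, p = 0.00216, adjusted p = 0.00433 over 2 comparisons). In diabetic mice the share was 45.2% ± 11.03 (n = 6) and 56.2% ± 3.14 (n = 5), a difference of -10.9 points (exact permutation test, adjusted p = 0.0238), with 4 of 6 HSC libraries below all BMDM libraries. The control difference over all distal regions was -4.39 points and over shared promoters -3.75 points, but over BMDM distal regions -14.6 points and over HSC distal regions 3.21 points, and whether these differ from that of the shared distal regions was not tested. With peaks ranked by fold enrichment the differences were -0.489 and -1.59 points (exact permutation test, adjusted p = 0.851 in both), so the call depends on the ranking. With the whole deposited lists they were -30.9 (adjusted p = 0.00866) and -15.5 points (adjusted p = 0.281), by the same exact permutation test. In diabetic mice it was also lost without unstimulated library 1, 2, 4 or 5 (exact permutation test, adjusted p from 0.0524 to 0.0810), whereas no left-out library ended the control call. The H3K4me3 lists differed in length, with a mean of 59901 peaks in control HSCs and 159292 in control unstimulated BMDMs. In diabetic mice the means were 82940 and 98586. The longest control HSC list, that of library 1 with 109214 peaks, had the 57.1%. The part of list length in the difference was not tested.

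Region by region, 101 of the 1397 (7.23%) had H3K4me3 in a share of lists at least 50 points higher in BMDMs, and 2 in HSCs, against 1.37% and 0.175% of all 77592 regions. The normal score of a region's rank was also compared by limma over all 77592 regions. In control mice 181 shared distal regions (13%) had a lower H3K4me3 score in HSCs at an adjusted p under 0.05, beside 5.16% of all regions, and 30 (2.15%) a higher one, beside 14.5%. Regions without a peak share the lowest rank, which was percentile 24.8 to 37.6 in the 6 control HSC libraries and 12.1 to 24.8 in the BMDM libraries, so a region with no peak in either scored higher in HSCs. The median score difference was -0.22 over the shared distal regions and 0.06 over all. In diabetic mice 10 were lower (0.716%, beside 0.376% of all) and 3 higher (0.215%, beside 0.0915%).

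Counts of called regions moved with the scale. The shares of all regions called under these settings are not given here, so the counts say nothing particular of the shared distal regions. In control mice 139 regions were called by fold ranks (62 higher, 77 lower), 632 on centered log2 values (0 higher, 632 lower) and 37 without 3 control BMDM libraries (1 higher, 36 lower). In diabetic mice the 13 calls became 1 by fold ranks, and 3 to 20 when single libraries were left out. The count was below 8 without diabetic unstimulated 1, 2 or 4 or diabetic HSC 1, 2 or 3, and 20 without diabetic LPS+IFN-γ 3 or control unstimulated 1.

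The region by Cdh15 (chr8:122869305-122871361) had the largest difference called in control mice. Its H3K4me3 percentile was 35.3, 49.9 and 80.0 (lowest, median, highest) in HSCs and 91.1, 93.4 and 99.7 in BMDMs, with no overlap, a score difference of -1.61 ± 0.25 (SE) and an adjusted p of 0.000494 by limma. By Idh2, a mitochondrial dehydrogenase (chr7:80143076-80145224), HSC libraries stood at the percentile of no peak, 24.8 to 37.6, and BMDM libraries at 78.6 to 89.6 (difference -1.42). Downstream of Runx3, HSC libraries ranged from 33.0 to 83.5 and BMDM libraries from 83.2 to 98.8 (difference -1.37, adjusted p = 0.00527), and 5 of 6 HSC libraries lay below all BMDM libraries. The region by Btg2, an antiproliferative early response gene, differed by -1.25 with no overlap. The snRNA genes near Eapp and Snx6 stood lower in HSCs as well, with differences of -1.31, -1.25 and -1.24 among the 10 largest, and that of Eapp was called in diabetic mice too (-1.05, limma adjusted p = 0.0193).

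Higher in HSCs was the region of 1810026B05Rik by Chd2, a chromatin remodeler gene, at percentiles 97.6 to 99.9 against 86.1 to 99.6 (difference 0.92, limma adjusted p = 0.0154). The region by Hif1a, the hypoxia factor gene, stood at 84.3 to 98.9 against 52.7 to 88.7 (0.86). In diabetic mice the region by Pim1, a kinase gene induced by cytokines (chr17:29430268-29439055), ranged from 80.4 to 93.9 in HSCs and measured 65.0, 41.8, 50.7, 28.7 and 26.4 in the 5 BMDM libraries (1.38 ± 0.21 SE, limma adjusted p = 0.00122). The fold change in read number behind these ranks is unknown.

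Between diabetic and control mice, no shared distal region differed in H3K27ac at an adjusted p under 0.05 by limma in HSCs, unstimulated BMDMs or stimulated BMDMs (all 77592 regions: 0%, 0.00387%, of which 0.00258% lower in diabetic mice, and 0.00129%). At an unadjusted p under 0.05 the counts were 10 (0.716%), 54 (3.87%) and 25 (1.79%), beside 3.60%, 5.80% and 4.26% of all regions. The rule asked for acetylation in nearly all lists of both kinds of mice, so few differences could remain and the low counts say nothing particular of these regions. The count was 0 as well with fold ranks, centered log2 values, regions of at least 10 lists, the replicate number as a block and each library left out. The largest values without a call were, in HSCs, 0.59 ± 0.26 (SE) by 4930467E23Rik (adjusted p = 1.00 after rounding), and in unstimulated BMDMs -0.78 ± 0.24 by Bicra (limma adjusted p = 0.600). In stimulated BMDMs 4 regions of the 4.5S array had the largest values, 0.82 and 0.66 by Ezh2 and 0.62 and 0.62 by Pdia4, all higher in diabetic mice, and the region by Als2cr12 lay at percentiles 90.9 to 98.1 in diabetic and 98.1 to 99.7 in control mice, without overlap (-0.62 ± 0.21, limma adjusted p = 0.993).

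The share with H3K4me3 did not differ detectably between diabetic and control mice. The differences were -1.38 points in HSCs, -2.06 in unstimulated BMDMs (56.2% against 58.2%) and 5.79 in stimulated BMDMs (64.4% ± 9.26 against 58.6% ± 3.82, n = 6 each), with adjusted p-values of 0.842, 0.299 and 0.299 by exact permutation. In HSCs the sign turned to 2.85 points without diabetic library 6, whose list held 13730 peaks, and to 0.716 without control library 1. Single regions also gave no H3K4me3 call by limma in these comparisons, with 81, 73 and 68 at an unadjusted p under 0.05 (5.80%, 5.23% and 4.87%, beside 3.70%, 5.11% and 5.80% of all regions).

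Stimulation with LPS and IFN-γ moved a few shared distal regions in BMDMs of diabetic mice. By limma, 14 had a higher and 4 a lower H3K27ac score at an adjusted p under 0.05, 1.29% of the 1397 beside 1.94% of all regions (1.38% higher and 0.562% lower). A share near the background says nothing particular of these regions, and the need to be held by 18 of 23 BMDM lists limits how far one can fall. In control mice none was called (0% of all regions), with 41 (2.93%) at an unadjusted limma p under 0.05, beside 5.80% of all regions. Without LPS+IFN-γ 5 and unstimulated 5 and 6, 8 were called (4 higher, 4 lower), and the share of all regions called so is not given here. No region was called for a difference between the effects of stimulation in diabetic and control mice, with 72 (5.15%) at an unadjusted p under 0.05 beside 6.15% of all. The comparisons share the unstimulated libraries with those of disease.

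The regions by Usp9x, Fos, Lhfpl2, Lmo4 and Nlgn3 were each held by 18 BMDM lists, the fewest that the rule allows, and so were chosen by the libraries in which they stood high. The choice and the call thus rest on the same values, and their p-values are given as description only. The same limit touches other regions low in unstimulated libraries of diabetic mice, such as that by Ly6e (36.2, 77.9, 28.5, 22.2 and 75.5). The region by Usp9x, a deubiquitinase gene on the X chromosome (chrX:13041479-13042499), rose most. In the 5 unstimulated libraries of diabetic mice it stood at percentiles 40.9, 62.1, 28.5, 60.9 and 75.6, and in the 6 stimulated ones at 89.5 (lowest), 93.1 (median) and 96.5 (highest). The groups did not overlap, and the lowest value is that of a library without a peak. The score rose by 1.40 ± 0.27 (SE, limma adjusted p = 0.00459), and in control mice the difference was 0.34 (adjusted p = 0.963), with means of 84.3 and 73.5, or 84.5 and 66.0 without the 3 doubted libraries. The start of the noncoding gene 5730405O15Rik lies inside the region.

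Upstream of Fos (chr12:85453297-85456444), the unstimulated libraries of diabetic mice stood at 18.1, 67.3, 28.5, 75.04 and 58.8, and the stimulated ones at 79.8, 85.3 and 96.4. The values of 18.1 and 28.5 are those of libraries without a peak there. The score rose by 1.16 ± 0.28 (SE, limma adjusted p = 0.0268) without overlap, and HSC libraries of diabetic mice stood at 86.3 to 90.5. As said above, this region was chosen by the BMDM libraries in which it stood high. In control mice the stimulated libraries averaged 81.6 and the unstimulated 71.3, and 87.7 and 65.9 without the 3 doubted libraries. Upstream of Fosb, a related AP-1 subunit, the order was the opposite (chr7:19324099-19328336). Its percentiles were 92.4, 90.8, 90.2, 92.2 and 93.2 without stimulation and 67.5, 76.6 and 87.9 with it, a difference of -0.61 ± 0.16 (SE, limma adjusted p = 0.0358) without overlap. In control mice its means were 80.2 with and 88.3 without stimulation, or 78.0 and 89.1 without the 3 doubted libraries. No region was called lower on centered log2 values or without diabetic LPS+IFN-γ 3, and 1 was without diabetic LPS+IFN-γ 1. The calls of a fall thus depended on single libraries and on the scale.

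The region far upstream of Lmo4, a LIM-only adaptor gene (chr3:144380399-144382291), rose by 1.07 ± 0.22 (SE, limma adjusted p = 0.00866), from 53.7, 18.6, 72.9, 56.2 and 66.5 to 79.4, 87.7 and 94.0. Like those by Lhfpl2 and Nlgn3, it was held by the fewest BMDM lists that the rule allows. In control mice the means were 84.0 and 74.1, or 86.0 and 65.1 without the 3 doubted libraries. Regions by Lhfpl2 (1.12), Ly6e (0.98), Abr (0.95), Tbl1xr1 (0.91), Gng7 (0.88), Nlgn3 (0.87) and Map3k1 (0.82) rose as well, those of Abr and Tbl1xr1 without overlap. Besides that of Fosb, regions by 1700001O22Rik (-0.76), Mpp7 (-0.72) and Ccdc54 (-0.72) fell, those of Mpp7 and Ccdc54 without overlap. In control mice all 14 of these named differences had the same sign, between 0.19 and 0.43 for those that rose and between -0.38 and -0.21 for those that fell, with no call.

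**Figure D5:**
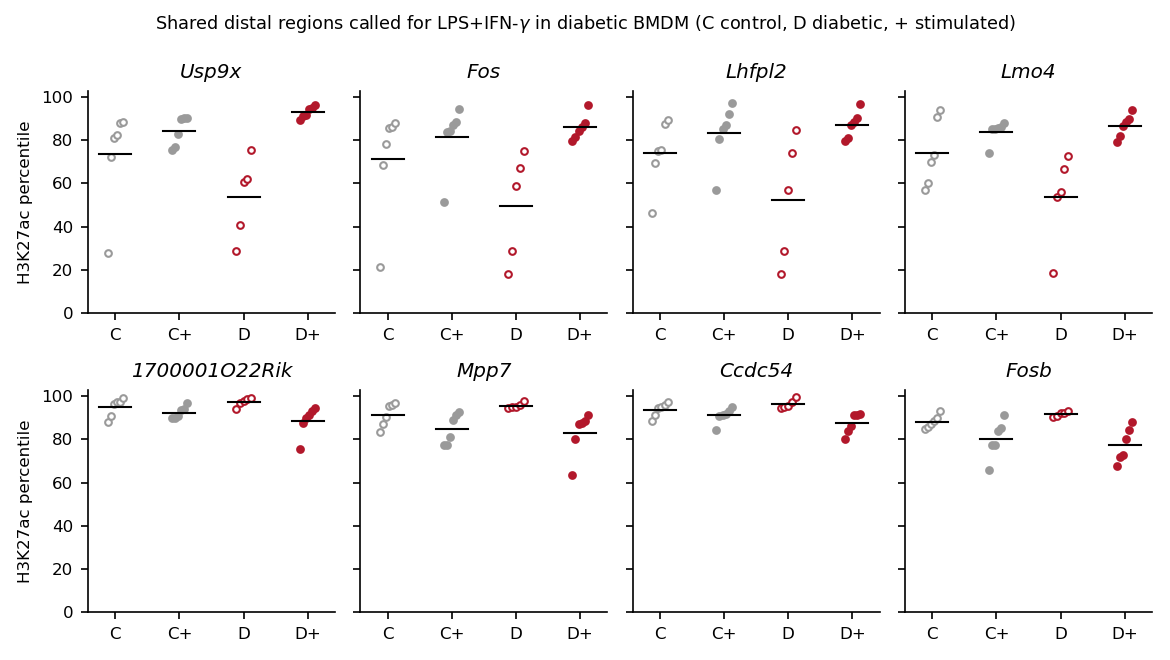
H3K27ac percentile within the library (y axis) of regions called for stimulation in BMDMs of diabetic mice, by Usp9x, Fos, Lhfpl2, Lmo4, 1700001O22Rik, Mpp7, Ccdc54 and Fosb. Points are libraries and lines the group mean, for control (C) and diabetic (D) BMDMs, with + for stimulated ones. In diabetic mice the stimulated libraries lie above the unstimulated ones at Usp9x, Fos and Lmo4 and below them at Mpp7, Ccdc54 and Fosb, without overlap. The regions by Usp9x, Fos, Lhfpl2 and Lmo4 were held by the fewest BMDM lists that the rule allows, and so were chosen by the libraries in which they stood high.

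Counts of stimulated calls depended on the libraries. Leaving out single libraries gave 7 to 32 calls in diabetic mice in place of 18, with 7 without diabetic LPS+IFN-γ 1 or 3, 8 and 11 without unstimulated 4 or 1, 29 without control LPS+IFN-γ 5 and 32 without diabetic LPS+IFN-γ 6. On centered log2 values 2 were called. The shares of all regions called under these settings are not given here either. The share of regions with H3K4me3 was 64.4% in stimulated and 56.2% in unstimulated BMDMs of diabetic mice, a difference of 8.24 points (exact permutation test, adjusted p = 0.169), with 4 of 6 stimulated libraries above all unstimulated ones. It passed the threshold without stimulated library 5 (10.6 points, exact permutation test, adjusted p = 0.0318). In control mice the difference was 0.394 points (exact permutation test, adjusted p = 0.918). By limma, no region was called for H3K4me3 in these comparisons or for their difference. At an unadjusted p under 0.05 there were 48 in control mice (beside 3.63% of all regions), 172 in diabetic mice (beside 7.15%) and 92 for the difference (beside 4.73%).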

How the data were processed

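H3K27ac and H3K4me3 ChIP-seq of 106 samples (70 peak lists and 36 inputs, the inputs not used here) was deposited as peak lists per sample. Per the submitters' processing notes, tools included Trim Galore 0.3.3, cutadapt 1.8, FastQC 0.11.3, Bowtie2 2.2.6, Picard 2.18.14 and 2.19.2, MACS2 2.2.7.1 and bedtools 2.19.1, with GRCm38 and mm10 as builds. The deposited lists give fold enrichment (a ratio), −log10 p, −log10 q and a score of 10 times −log10 q, and other columns hold positions and summits. They hold no read totals, so depth is unknown.

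Rows of one interval were collapsed, the best 30000 peaks per list by −log10 p were merged on chromosomes 1 to 19, X and Y at an overlap of 1 bp, and 93459 starts of any transcript of protein-coding genes (GENCODE release 21 of mouse) defined distal regions. For each of 77592 regions in 2 or more lists, the best −log10 p of the whole list was ranked within the library (0 where there was no peak) and turned into a normal score, to which limma 3.58.1 (R 4.3.3) was fitted over 6 groups per mark with Benjamini-Hochberg adjustment and a call at 0.05. Both marks shared the same regions. The fit was tested on simulated data. Shares of regions were compared by exact permutation of libraries. Python 3.11.15, numpy 2.4.6, pandas 2.3.3, scipy 1.17.1 and matplotlib 3.10.9 were used. Samples were grouped by their labels.

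The regions, gene lists and tests were chosen with earlier results of these data known. Regions are called by their nearest protein-coding start. Named are the 10 with the best median acetylation, the 5 widest, 10 with most and 5 with no H3K4me3 lists, the 5 nearest and 5 farthest, the 10 genes with most regions, up to 10 calls per direction or the 5 largest values without a call, those of fixed gene lists, and 3 at each side of the limits. The 4.5S RNA search, the small RNA examples and the Usp9x comparison of CpG were chosen after values were seen. Not all named by this rule are printed. Alternatives changed the number or ranking of peaks, the distance, the overlap, the scale, the regions fitted, a replicate block and single libraries.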

Additional observations from a re-analysis of the deposited data

Results flagged for a closer look

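In 4 of 18 groups tested, 1 library stood apart from the rest by Dixon's criterion, which chance meets in about 1 of 20 groups. The share of shared distal regions with H3K4me3 was 24.05% in diabetic HSC library 6 and 42.95% to 53.54% in the other 5, and its list of 13730 peaks was the only one under 30000. It was 57.12% in control HSC library 1, whose list of 109214 peaks was the longest of that group, against 41.8% to 47.24% in the others. In control LPS+IFN-γ BMDM library 1 it was 66.0%, against 55.48% to 58.77%. H3K27ac held 85.4% of the shared distal regions in diabetic LPS+IFN-γ BMDM library 3, against 93.56% to 97.49%.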

How the results depend on the processing

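The number of shared distal regions, 1397, was 799 and 266 with 20000 and 10000 peaks per list, 914 with peaks ranked by fold, 7502 when any deposited peak counted and 553 when all lists were required. It was 1545 and 1186 with a distance of 1 and 5 kb, 957 with starts of all genes, and 1211 to 1334 with single libraries left out. With libraries left out, the number of lists needed was scaled to those left and rounded up, which makes the rule stricter. Calls of H3K27ac with stimulation in diabetic mice (18) became 10 by fold ranks, 2 on centered log2 values, 56 over regions of at least 10 lists and 32 without 3 control BMDM libraries, with 7 to 32 under leave-one-out. In control mice 8 were called without those 3 libraries and 0 with any single one left out. Calls of H3K4me3 between HSCs and BMDMs of control mice (211) became 139, 632, 135 and 37 in the same order, with 145 to 260 under leave-one-out. Those of diabetic mice (13) became 1, 8 and 24 over the first 3, with 3 to 20. The shares of all regions called under these alternatives are not given here, so the counts show only a dependence on the processing.

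The difference in H3K4me3 share between HSCs and BMDMs fell to -0.489 points in control and -1.594 in diabetic mice with fold ranks, and was -15.54 points (exact permutation test, adjusted p = 0.281) in diabetic mice with whole lists. Leave-one-out gave -13.7 to -10.63 and -12.58 to -6.686 points. Differences between diabetic and control mice changed sign in HSCs (6.144 with whole lists, 0.2625 by fold, leave-one-out -3.045 to 2.854), in unstimulated BMDMs (1.367 by fold, leave-one-out -2.959 to -0.9544) and in stimulated BMDMs (-0.7039 with whole lists, leave-one-out 2.761 to 8.115), and none passed the threshold. With stimulation, control mice gave -3.042 points with whole lists and -1.083 to 1.021 under leave-one-out, and diabetic mice 6.784 points (exact permutation test, adjusted p = 0.0476) with 13000 peaks and 5.211 to 10.57 under leave-one-out. The gaps to regions of one cell type stayed positive, at 30.34 to 55.77 and 26.88 to 45.29 points, and 47.97 to 49.5 and 37.8 to 38.58 under leave-one-out. The cause of these changes was not tested.

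Replicate numbers were not taken to pair libraries, since correlations of deviations in 78 pairs ran from -0.203 to 0.449. Of the 22 pairs of unstimulated and stimulated libraries 20 were positive, from 0.0121 to 0.236 (H3K27ac) and 0.0239 to 0.205 (H3K4me3) in diabetic mice, but no set had all pairs above 0.1. With the replicate number as a block, 5 regions (5 higher, 0 lower) were called for stimulation in diabetic mice, 219 and 13 for H3K4me3 in control and diabetic mice, and the share differences of -11.6 and -11.48 points had an adjusted p of 0.0625 in the exact permutation of pairs, the smallest that this design allows, so that test could not pass the threshold. Of the 47 named calls, 33 kept their call with the block, 45 over regions of at least 10 lists, 32 without the 3 libraries, 22 by fold and 20 on log2 values. The acetylation percentile band was an alternative chosen after seeing the data, as was the use of transcripts themselves annotated as protein-coding, which gave 1609 regions. Unknown depth limits all statements on weak peaks.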
